A study of Mus musculus with 4 samples.

Results

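Regions of open chromatin found in small-intestinal but not in large-intestinal stem cells, and lying far from any protein-coding gene, were examined in mouse. Chromatin was profiled by ATAC-seq, an assay in which Tn5 transposase inserts adapters into accessible DNA, and peaks were called in each library. The animals carried the Lgr5-EGFP-IRES-creERT2 allele, which marks Lgr5-expressing crypt base cells with EGFP, and were 6 to 12 weeks old with no treatment named. Small-intestinal stem cells (SISC, 2 libraries) were sorted as Lgr5-EGFP+/CD24- from tissue near the pylorus and near the cecum. Large-intestinal stem cells (LISC, 2 libraries) were sorted as Lgr5-EGFP+, with no CD24 gate named, from tissue reaching from the cecum to the rectum. Tissue and sorting gate therefore cannot be told apart. Whether both libraries of a tissue derive from different animals is not stated, so replicate spread here may be technical.

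Merging peaks across the 4 lists wherever they shared 1 bp or more gave 119965 regions, 117196 of them on chromosomes 1 to 19. A region was SISC-only when it held a peak in both SISC lists and in neither LISC list. It lay in a gene desert when its midpoint was outside every protein-coding gene and more than 100 kb from the nearest end of one. Of 7762 desert regions (mm10 coordinates, RefSeq genes), 738 (9.51%) were SISC-only, and these are the members described here. For comparison, 1646 desert regions (21.2%) were LISC-only and 2592 were called in all 4 libraries. Over all regions of chromosomes 1 to 19, 9337 (7.97%) were SISC-only. The members were chosen by the peak calls themselves, so these counts, and the strengths of the peaks, describe the selection and carry no test. Read depth is unknown, so absence from a list means that no peak was called and does not show closed chromatin. In sorted pools of cells, a region open in fewer cells and one less open in each cell cannot be told apart.

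Distal open regions often hold enhancers, short stretches bound by transcription factors that can act on a promoter over long distances by chromatin looping. Broad gene-poor stretches commonly flank genes for developmental regulators, and the enhancers within them tend to be used in some tissues and not in others. In the intestine, GATA, HNF4, HNF1, CDX and KLF factors bind many distal sites, and GATA factors are known for their part in the identity of the proximal small intestine. Lgr5-positive cells at the crypt base are the Wnt-dependent stem cells of both the small and the large intestine.

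The word "desert" refers to protein-coding genes only. The midpoint of 159 members (21.5%) lay inside an annotated lncRNA gene, against 18.8% of LISC-only and 27.5% of 4-library desert regions. A total of 67 members (9.08%) were more than 100 kb from every annotated gene of any type, against 294 of the 1646 LISC-only desert regions. Of all SISC-only, LISC-only and 4-library regions on chromosomes 1 to 19, 0.718%, 2.47% and 0.413% were this far from genes. Their shares in deserts were 7.90%, 13.8% and 4.58%. A set of 12 members overlapped the start window of a lncRNA gene, which runs from 250 bases before to 50 after the annotated start. That was 1.63% of the members, against 1.22% of LISC-only and 3.55% of 4-library desert regions.

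Start windows covered wholly or nearly wholly by a member are shown because they are the stretches of these regions whose sequence was read, from RefSeq GRCm38.p6. Capitals mark motif words found on either strand. These are AGATAA or TGATAA for GATA factors, CCNCACCC for KLF factors, TAATTA for homeobox factors and TGANTCA for AP-1. In Gm31816 the GATA and homeobox words overlap, as do the KLF words.
Gm31816 (chr9:47368195-47368494, minus strand): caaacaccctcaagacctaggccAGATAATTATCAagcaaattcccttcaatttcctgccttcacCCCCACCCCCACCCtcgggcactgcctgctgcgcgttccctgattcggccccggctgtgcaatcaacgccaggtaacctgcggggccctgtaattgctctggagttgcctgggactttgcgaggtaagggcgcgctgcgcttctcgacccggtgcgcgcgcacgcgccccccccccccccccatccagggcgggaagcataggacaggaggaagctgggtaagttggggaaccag
Gm33980 (chr10:83933476-83933775, minus strand): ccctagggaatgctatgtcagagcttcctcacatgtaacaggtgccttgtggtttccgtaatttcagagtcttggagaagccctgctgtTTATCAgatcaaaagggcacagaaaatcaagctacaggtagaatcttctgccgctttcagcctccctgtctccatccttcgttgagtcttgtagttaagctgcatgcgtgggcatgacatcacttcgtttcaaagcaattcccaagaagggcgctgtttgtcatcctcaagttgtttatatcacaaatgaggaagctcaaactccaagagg
Gm30365 (chr14:76837707-76838006, minus strand): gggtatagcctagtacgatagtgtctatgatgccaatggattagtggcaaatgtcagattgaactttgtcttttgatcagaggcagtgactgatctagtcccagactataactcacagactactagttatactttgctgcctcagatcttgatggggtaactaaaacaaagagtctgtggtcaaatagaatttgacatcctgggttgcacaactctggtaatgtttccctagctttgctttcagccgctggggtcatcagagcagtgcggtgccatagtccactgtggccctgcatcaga
Gm19276 (chr15:10828801-10829100, plus strand): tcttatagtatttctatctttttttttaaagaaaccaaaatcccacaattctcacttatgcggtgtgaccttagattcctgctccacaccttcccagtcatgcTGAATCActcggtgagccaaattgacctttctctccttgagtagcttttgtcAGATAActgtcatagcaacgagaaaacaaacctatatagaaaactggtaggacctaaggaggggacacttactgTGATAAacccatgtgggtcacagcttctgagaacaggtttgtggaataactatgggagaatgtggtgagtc

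The first 3 windows lie wholly within a member, and the Gm19276 window shares 290 bases with one. The member at Gm31816, in the desert between Gm4791 and the cell adhesion gene Cadm1, had −log10 q values, a measure of peak strength, of 20.9 (SISC replicate 1) and 32.7 (SISC replicate 2). The member at Gm33980, in the desert beside the kinase gene Nuak1, had 31.5 and 38.6. At Gm30365, whose window held none of the 13 motifs searched, the values were 7.40 and 17.6. At Gm19276 they were 9.08 and 16.1. In all, 13 start windows touched 12 members, and they shared from 24 to all 300 of their bases with one. Words and GC content were read over whole windows, so a word can lie outside the member. The only GATA word in the 4930529N20Rik window did. A GATA word was present in 7 of these 13 windows (53.8%, exact Clopper-Pearson 95% interval 25.1 to 80.8). It was present in 7 of 21 windows touching LISC-only desert regions (33.3%), in 26 of 109 touching 4-library desert regions (23.9%), and in 23.6% of 11311 lncRNA start windows in the table. The GATA word was singled out of the 13 motifs after the values were seen. An AP-1 word was found in 3 of the 13 windows (23.1%, 5.04 to 53.8), an interval that contains the 9.25% of all lncRNA windows. The member windows had a lower GC content, with a median of 43.3% against 48.3% over all lncRNA windows, and the part of base composition in these shares was not tested. HNF4, HNF1, TCF/LEF and CTCF words were found in none of the 13, which at this number of windows allows a share of up to 24.7% each. These matches are letters in a window and are not evidence of binding.

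A microRNA gene also lay within the members. Mir137 encodes miR-137, a microRNA known from neural differentiation, and its hairpin (chr3:118433857-118433929, plus strand, GRCm38.p6) was contained in a member between the sorting nexin gene Snx7 and the pyrimidine-degrading enzyme gene Dpyd. Its mature arms are given with the seed, bases 2 to 8, in capitals.
mmu-miR-137-5p: aCGGGUAUucuuggguggauaau
mmu-miR-137-3p: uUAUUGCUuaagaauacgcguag

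The member that contains the hairpin was weak, with −log10 q values of 4.08 and 11.8 in the SISC libraries. A second member began 477 bp beyond the hairpin and had values of 7.40 and 5.66. Neither had a peak in a LISC library. Both lay about 128 kb from the nearest protein-coding gene end.

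The SISC-only share of intergenic regions was almost level with distance from genes, while the LISC-only share climbed. Within 10 kb of a gene end, 8.03% of 18487 intergenic regions fell in the SISC-only class and 6.56% in the LISC-only class. At 100 to 200 kb the SISC-only share was 9.95% of 4241 regions, and at 200 to 500 kb it was 8.80% of 2874. Beyond 500 kb it was 9.74% of 647 regions (63 regions, 95% interval 7.56 to 12.3), where the LISC-only share was 34.3% (222 regions, 30.7 to 38.1). There were 0.817 LISC-only regions for each SISC-only region nearest to genes and 3.52 at the greatest distance. Intervals cover counting error over regions of these libraries, and neighbouring regions are not independent.

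**Figure D1:**
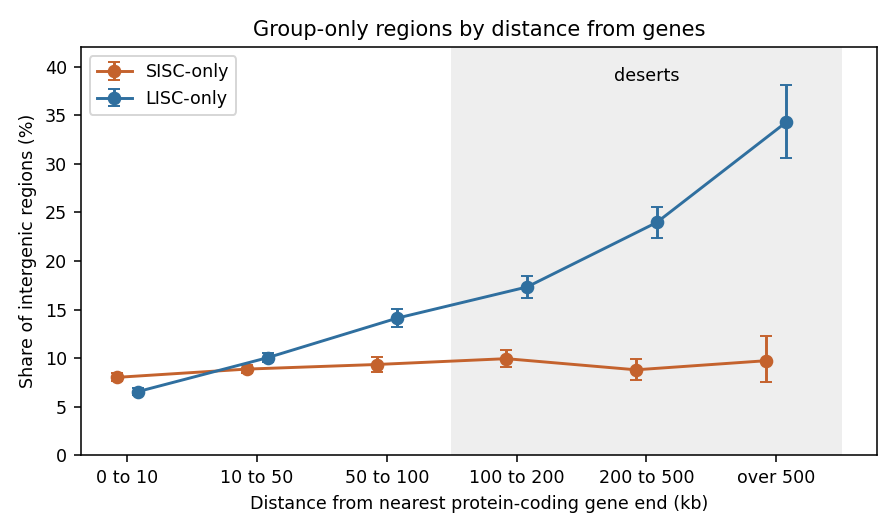
Share of intergenic regions (y axis, %) that were SISC-only or LISC-only, by distance of the midpoint from the nearest protein-coding gene end (x axis, kb), with exact 95% intervals; the shaded bins are deserts. The SISC-only share stays between 8.03% and 9.95%, while the LISC-only share goes from 6.56% to 34.3%.

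Of all SISC-only regions on chromosomes 1 to 19, 7.90% lay in deserts (95% interval 7.36 to 8.47). This was less than the 13.8% of LISC-only regions (13.2 to 14.4) and more than the 4.58% of regions called in all 4 libraries (4.41 to 4.75). Taken library by library, without any group call, 5.14% and 5.23% of peaks lay in deserts in the SISC libraries, and 6.25% and 6.57% in the LISC libraries. The groups did not overlap. The SISC mean was 5.18% ± 0.0634 (SD, n = 2) and the LISC mean 6.41% ± 0.223 (SD, n = 2), a difference of -1.23 percentage points (exact two-sided permutation test, p = 0.333, the smallest p that 2 libraries against 2 allow).

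Most members were weak peaks of their own lists. Strength is given as the authors' −log10 q, where q is the peak caller's p-value adjusted over the list, and larger values mark stronger peaks. For the members it ran from 3.11 to 277 in SISC replicate 1, with a median of 15.5, and from 2.84 to 242 in replicate 2, with a median of 16.8. Their median fold enrichment over local background was 4.58 and 4.33. Ranked among all peaks of the same list by −log10 q, the members had a median percentile of 27.3 in replicate 1 and 32.5 in replicate 2. SISC-only regions outside deserts had close medians, 23.7 and 32.5, so low rank was shared with SISC-only regions near genes. LISC-only desert regions stood at 34.9 and 37.5 in the LISC lists. Desert regions of all 4 libraries stood between 53.6 and 62.0 in the 4 lists. The members were also narrow, with a median of 489 bp, against 527 bp for LISC-only and 858 bp for 4-library desert regions.

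The ranks of the members were moderately correlated between the replicates. Spearman's rho of −log10 q between the SISC libraries was 0.645 over the 738 members, given as a description since both values entered the selection. It was 0.655 for SISC-only regions outside deserts, and 0.753 for LISC-only desert regions between the LISC libraries. The summits of a member's peaks in the replicates were a median of 28 bp apart, against 29 bp in each of those other sets. Both values reached 5 in 693 members, and 106 members were under 10 in both. A group of 101 members (13.7%) ranked above the 50th percentile of both lists. When every list was cut to its 41721 strongest peaks, 275 regions met the rule, of which 89 were members.

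**Figure D2:**
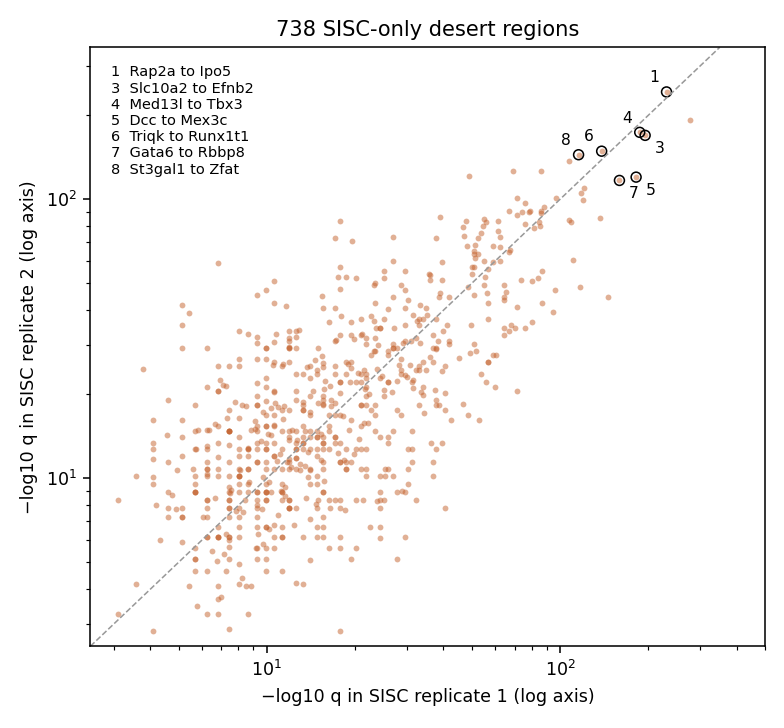
Authors' −log10 q of each of the 738 members in SISC replicate 1 (x axis) and replicate 2 (y axis), both on log axes; each point is a member, the dashed line marks equal values and the 7 circled points are among the 8 with the highest mean percentile, numbered by rank with their flanking genes. Most points lie near the medians of 15.5 and 16.8, and the 7 circled members lie at 116 or more in both replicates.

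The 8 strongest members by mean percentile had −log10 q values between 116 and 277. The next in rank, beside Jarid2, followed closely with 107 and 138. The highest in rank (chr14:120755082-120756438, between the small GTPase gene Rap2a and the nuclear import receptor gene Ipo5) had −log10 q values of 231 (SISC replicate 1) and 242 (SISC replicate 2). Another (chr8:6886843-6887495) lay between Slc10a2, the ileal bile acid transporter gene, and the ephrin ligand gene Efnb2, 1730 kb from the latter, and had 195 and 169. The percentiles of these members within either list ran from 86.5 to 92.7, and the nearest LISC peak was 73.9 and 197 kb away.

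The remaining strong members flanked several regulators. A member between Med13l, a Mediator subunit gene, and the T-box factor gene Tbx3 had −log10 q values of 187 and 174, but a region called in all 4 libraries lay only 1.93 kb away. One between the netrin receptor gene Dcc and Mex3c, an RNA-binding protein gene, had 182 and 120. One 232 kb from Gata6, a GATA factor of gut endoderm, had 159 and 117. Its nearest LISC peak was 15.3 kb away, and its desert held 4 LISC-only regions beside 2 members. One between Triqk and the corepressor gene Runx1t1 had 139 and 149, and one between St3gal1, a sialyltransferase gene, and the zinc-finger gene Zfat had 116 and 144.

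Strong desert regions of the SISC libraries were seldom missing from both LISC lists. Among the 3626 desert regions called in both SISC libraries, 20.4% were SISC-only, against 12.6% of such regions outside deserts. By mean percentile in the SISC lists, the SISC-only share in deserts was 43.5% up to percentile 25, 23.8% from 25 to 50, 11.0% from 50 to 75 and 2.61% above 75. Outside deserts the shares in the same bands were 39.6%, 19.8%, 5.41% and 0.716%. The mirror comparison gave LISC-only shares of 58.9%, 41.4%, 28.6% and 12.1% in deserts, above the SISC-only shares in every band. The bands belong to lists of different libraries, so equal percentiles do not mean equal signal.

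**Figure D3:**
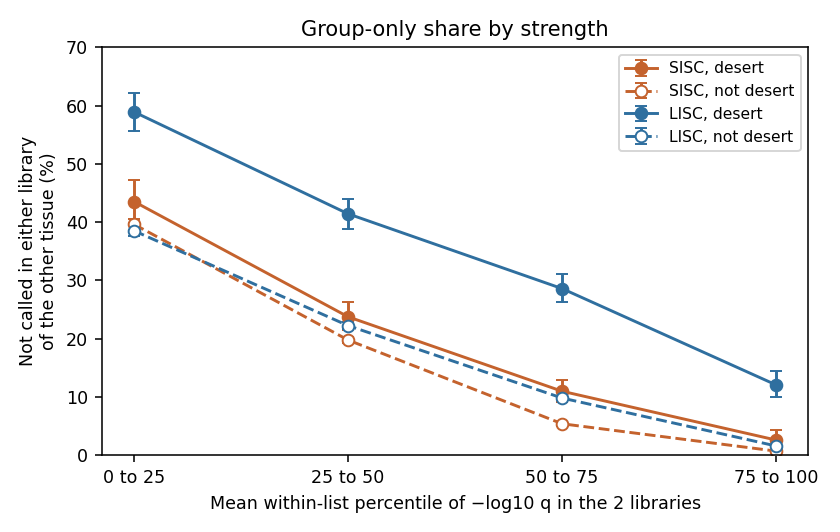
Share of regions called in both libraries of a tissue that were called in neither library of the other (y axis, %), by mean within-list percentile of −log10 q (x axis), in deserts (filled) and elsewhere (open), with exact 95% intervals. The SISC-only share in deserts goes from 43.5% to 2.61%, and the LISC-only share in deserts from 58.9% to 12.1%.

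The calls around the threshold were also counted. A further 204 desert regions were called in SISC replicate 1 alone and 575 in replicate 2 alone. Another 121 were called in both SISC libraries and LISC replicate 1, and 175 in both SISC libraries and LISC replicate 2. Without SISC replicate 1, the rule would take in 1313 regions. The nearest peak of any LISC library lay a median of 11.2 kb from a member. It was within 1 kb for 76 members and over 50 kb away for 156. The nearest LISC-only region was much farther, at a median of 107 kb.

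The members were spread over 330 of the 1393 deserts of the gene table, which together span 680 Mb, so that there were 1.09 members per Mb of desert and 2.42 LISC-only regions. A single member was found in 155 deserts. At the other end, 34 deserts held 5 or more members and together 222 of them (30.1%). Of these 34, 8 held no LISC-only region, and 7 held more LISC-only than SISC-only regions. Members were therefore found both in deserts where LISC-only regions were lacking and in deserts rich in both.

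**Figure D4:**
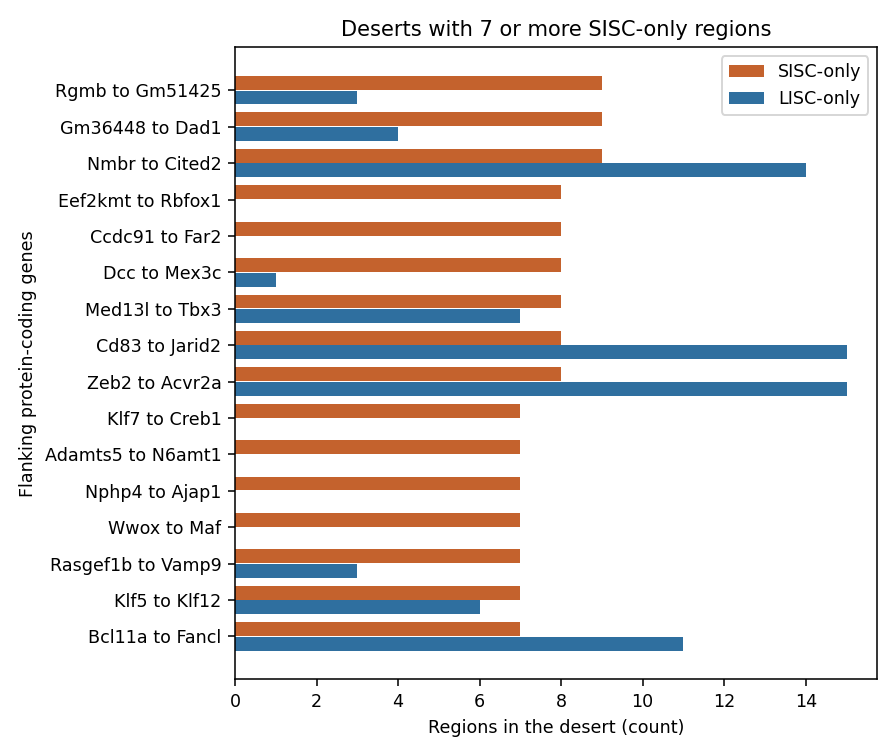
Number of SISC-only and LISC-only regions (x axis) in the 16 deserts with 7 or more members, each named by its flanking protein-coding genes. The SISC-only counts lie between 7 and 9, while the LISC-only counts run from 0 to 15.

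The highest number, 9 members, was found in each of 3 deserts. In the 1174 kb between Rgmb, a BMP co-receptor gene, and Gm51425 on chromosome 17, 9 members lay beside 3 LISC-only regions and 8 regions of all 4 libraries, and the libraries had 19, 20, 16 and 15 called regions (SISC 1, SISC 2, LISC 1, LISC 2). Between Nmbr, the neuromedin B receptor gene, and Cited2, a transcriptional coregulator gene, there were 9 members beside 14 LISC-only regions. The libraries had 35, 38, 46 and 41 called regions, so here the LISC libraries had more in all. The third lay in the 1694 kb between the gene ends of Gm36448 and Dad1 on chromosome 14, which span the variable segments of the T cell receptor alpha locus. Its 9 members lay beside 4 LISC-only regions and 10 regions of all 4 libraries. The libraries had 25, 34, 16 and 23 called regions there. Its count of members was 0 when antigen receptor segments were also taken as genes.

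A further 6 deserts held 8 members. In the 629 kb between Eef2kmt, a lysine methyltransferase gene, and the splicing regulator gene Rbfox1, 8 members lay beside 0 LISC-only regions, with 14, 16, 4 and 5 called regions in the 4 libraries. In the 415 kb between Ccdc91 and Far2, a fatty acyl-CoA reductase gene, there were also 8 against 0, with 19, 17, 3 and 7 called regions. By the rule, members count in each SISC total and in no LISC total, so such totals are not separate from the selection. Dcc to Mex3c held 8 members and 1 LISC-only region, and Med13l to Tbx3 held 8 and 7. Near Jarid2, a Polycomb-associated gene, and near Zeb2, a zinc-finger repressor gene, 8 members lay beside 15 LISC-only regions each. Over the other settings of peak, distance and library tried, the counts of these 9 deserts ran from 0 to 17. They were 1 to 4 when only the strongest peaks were merged, and 10 to 17 without SISC replicate 1.

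Members were grouped into clusters by distance. Chained by gaps of at most 50 kb between midpoints within a desert, 380 members (51.5%) fell into 136 clusters of 2 or more, 52 of them of 3 or more. The same rule put 60.6% of the LISC-only and 78.7% of the 4-library desert regions in clusters. Those sets are 1646 and 2592 regions, and a denser set chains more readily, so the shares do not rank the sets. The members' share in clusters was 32.0% when only the strongest peaks were merged and 25.4% when all annotated genes bounded a desert, both with fewer regions.

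Among the 6 clusters of 7 or more members, the tightest lay between Wwox, an oxidoreductase gene, and Maf, a bZIP transcription factor gene. Its 7 members spanned 32.7 kb, 164 to 196 kb from Maf. The strongest (chr8:115531214-115531746) had −log10 q values of 86.0 and 126, and the weakest 6.75 and 5.07. No LISC-only region was found in this desert, and the libraries had 10, 11, 2 and 1 called regions. Counting the desert on its other side too, Maf was flanked by 11 members and 6 LISC-only regions.

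Other clusters differed in how much shared open chromatin they held. Between Nphp4 and Ajap1, an adherens junction protein gene, 7 members spanned 64.0 kb with no region of all 4 libraries among them, and the LISC libraries had 1 and 0 called regions in the whole desert. The 8 members between Eef2kmt and Rbfox1 spanned 118 kb with 1 region of all 4 libraries among them. The 8 between Ccdc91 and Far2 spanned 133 kb with 3, and the 7 between the transcription factor genes Klf7 and Creb1 spanned 114 kb with 5. Members in the Klf7 desert thus stood among shared regions, whereas those near Ajap1 did not.

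**Figure D5:**
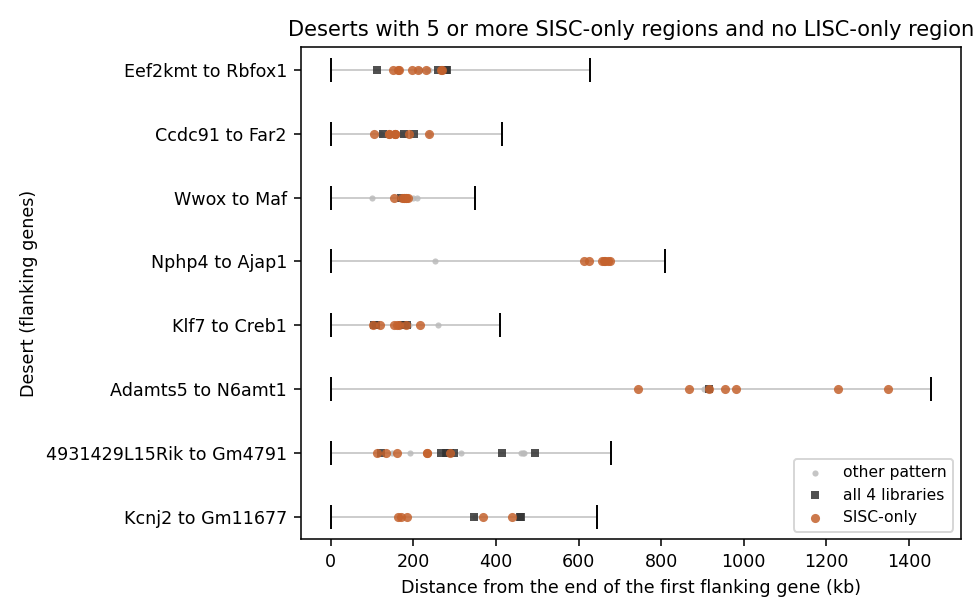
Positions of regions (x axis, kb from the end of the first flanking gene) in the 8 deserts with 5 or more members and no LISC-only region (y axis); orange points are members, black squares are regions of all 4 libraries, grey dots are regions of another pattern and vertical bars are gene ends. The 7 members between Wwox and Maf lie within 32.7 kb of each other, while the 7 between Adamts5 and N6amt1 lie 744 to 1348 kb from Adamts5, 4 of them within 114 kb of each other.

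The lists of genes flanking the members showed that intestinal regulators had dense deserts in both tissues. Of 44 intestinal transcription factors, 21 flanked a desert, and 10 of these (47.6%) flanked members: Gata6, Hes1, Isx, Klf4, Klf5, Lef1, Maf, Mecom, Sox4 and Sox9. LISC-only regions lay beside 13 of the 21 (61.9%). Over all genes that flank a desert, members lay beside 26.6% and LISC-only regions beside 38.8%. The deserts beside the 21 genes held 4.33 members per Mb, against 1.09 over all deserts, but also 8.13 LISC-only regions per Mb, against 2.42. Of the 404 regions there 9.90% were SISC-only, close to the 9.51% of all desert regions. The ends of all 10 genes were open in all 4 libraries, meaning that a region within 1 kb of an end was called in each.

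Within this list the balance of the 2 group-only kinds differed by gene. Hes1, a Notch target repressor, was flanked by 6 members and 5 LISC-only regions, and Klf5, a factor of proliferating crypt cells, by 7 and 6. Isx, an intestine-specific homeobox gene, was flanked by 3 members, the nearest 599 kb away, and 0 LISC-only regions. Lef1, a Wnt effector, was flanked by 2 members, the nearest 161 kb away, and 0 LISC-only regions. Klf4, a factor of differentiating epithelium, was flanked by 2 and 11, and Sox9, a crypt base factor, by 4 and 12. Gata6 was flanked by 2 members and 5 LISC-only regions. The strongest member near Hes1 had −log10 q values of 14.3 and 20.5, far below the 159 and 117 of the strongest member beside Gata6.

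Stem cell and Wnt genes were represented by 5 of the 14 that flanked a desert: Axin2, Lrig1, Myc, Olfm4 and Rgmb. LISC-only regions lay beside 6 of the 14, and members beside 26.6% of all genes that flank a desert. A member 193 kb from Olfm4, known as a marker gene of small-intestinal crypt base cells, showed −log10 q values of 120 and 110, and the end of Olfm4 itself was open in the SISC libraries only. The desert on that side nonetheless held 9 LISC-only regions beside 2 members. Axin2, a Wnt feedback inhibitor, was flanked by 2 members and 0 LISC-only regions, and Myc by 4 and 11. Of the regions in the deserts of this list, 7.89% were SISC-only, against 9.51% of all desert regions.

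Genes of developmental transcription factors and of neuronal adhesion proteins flanked deserts of unlike density. Of 53 developmental factors that flanked a desert, 19 lay beside members and 36 beside LISC-only regions. Their deserts held 1.45 members per Mb, and 9.49% of the regions there were SISC-only. Nfib, a nuclear factor I gene, was flanked by 7 members and 2 LISC-only regions, and its strongest member had −log10 q values of 79.0 and 90.4. Sox11 had 4 members and 2 LISC-only regions, with 78.2 and 90.3 at the strongest, while Sox2 had 1 and 16. Of 50 neuronal adhesion genes, 18 lay beside members and 30 beside LISC-only regions. The 118 Mb of desert of these genes held only 0.272 members per Mb and 1.13 LISC-only regions. The SISC-only share of their regions was 8.23% and the LISC-only share 34.2%, against 9.51% and 21.2% of all desert regions, and these deserts held 389 regions of any kind, against 7755 in the 680 Mb of all deserts. Among all 2374 genes that flank a desert, 631 (26.6%) flanked members and 922 (38.8%) LISC-only regions. Of 39 small-intestinal absorptive genes, 3 flanked a desert, with members beside 2 of them and LISC-only regions beside all 3. Apob, an apolipoprotein gene, was flanked by 1 member, 161 kb away, and 5 LISC-only regions. Slc10a2 was flanked by 4 members, the nearest 409 kb away, and 10 LISC-only regions. The carbonic anhydrase gene Car2, of the large-intestinal list, was flanked by 2 members and 4 LISC-only regions.

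Regions near the flanking genes, which the selection did not use, were counted beside those in the desert. In the 143 deserts with members and no LISC-only region, the 100 kb margins next to the flanking genes held 150 SISC-only and 104 LISC-only regions, a SISC-only share of 59.1%. In the 187 deserts with both kinds the margins held 211 and 251 (45.7%). In the 311 deserts with LISC-only regions and no member they held 156 and 429 (26.7%). In the 226 deserts with neither kind but some other called region they held 164 and 208 (44.1%), close to the share where both kinds occurred. Deserts without any called region were not counted. Over the 641 deserts with either kind the SISC-only minus LISC-only count in the desert and in its margins had a Pearson r of 0.221 and a Spearman rho of 0.207. This is a description: both counts come from the same 4 libraries and share their depth. The ends of the flanking genes were open in all 4 libraries for 64.2%, 71.5% and 63.7% of genes in the first 3 kinds of desert, and for 62.8% in deserts with neither kind. Over all 20665 genes this was 63.8%. Few ends were open in 1 tissue only. In the same 3 kinds, 8, 6 and 14 genes (2.84%, 1.66% and 2.35%) had SISC-only ends. The share was highest beside deserts with neither kind, at 15 of 435 genes (3.45%), so SISC-only ends did not mark deserts with members. LISC-only ends were found for 1, 2 and 10 genes (0.355%, 0.552% and 1.68%) of the first 3 kinds, and for 3 genes (0.690%) beside deserts with neither kind. Of all genes, 1.41% had SISC-only and 0.697% LISC-only ends.

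One group of members lay in antigen receptor loci, which the gene table lists as segments and not as protein-coding genes. Of the 738 members, 10 (1.36%) lay in or within 20 kb of such a segment, against 4 LISC-only (0.243%) and 13 desert regions of all 4 libraries (0.502%). All but 1 of them formed a cluster over 104 kb of T cell receptor alpha variable segments, from near Trav13-2 to Trav16, with no LISC-only or 4-library region among them. The strongest, near Trav9-4 (chr14:53679451-53680151), had −log10 q values of 62.2 and 73.5, and 1 member each overlapped Trav8-2 (23.4 and 50.2) and Trav3-3 (39.7 and 24.3). The remaining member, near the immunoglobulin heavy chain segment Ighv5-9-1 (chr12:113747956-113748382), had 107 and 84.0, and a LISC peak lay 0.875 kb from it.

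Markers of other cells were read from the gene ends beside these results. All 11 epithelial markers were open in every library, and 5, 4, 3 and 4 of 5 stem cell markers in SISC 1, SISC 2, LISC 1 and LISC 2. Of 8 immune markers, 3, 3, 2 and 1 were open in the same order, and the defining genes Ptprc, Cd3d, Cd3e and Csf1r were open in none, while Itgam was open in SISC only. Of 6 stromal markers, 3, 4, 2 and 1 were open in the same order, and of 4 endothelial markers, 1 in each. Muscle and glial markers were open in 4, 5, 5 and 3 of 5. Of 6 Paneth and deep crypt secretory markers, 3, 3, 2 and 3 were open. The part of other cell types in the members was not tested.

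Of the 3 members farthest from genes, 1 was strong. The farthest, between Cntnap5b and Cdh20, lay 2136 kb from the nearest gene end and had −log10 q values of 4.59 and 7.80. The next was the strong member between Slc10a2 and Efnb2 described above, and another in that desert lay 1557 kb from Efnb2 with 20.1 and 5.64. Just inside the distance threshold were members 100.081 kb from Zfp36l2, 100.201 kb from Cebpb and 100.231 kb from C9orf72. Just outside were SISC-only regions 99.897 kb from Pdk4, 99.765 kb from Fut8 and 99.321 kb from Map4k3. The member near Cebpb, a bZIP factor gene, had −log10 q values of 66.9 and 64.5, and the other regions at the threshold had values between 5.59 and 22.1.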

How the data were processed

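ATAC-seq peak lists of 4 libraries, 2 SISC and 2 LISC, were analysed; per the labels, each library came from 50000 cells and 10 PCR cycles. The submitters' processing notes name MACS2 2.2.7.1, Bowtie2 2.3.4.1, bedtools, cutadapt 3.4 and Picard, and the mm10 build. The sources used here give neither their order and settings nor the shift for Tn5 insertion or the treatment of duplicates. The authors deposited 1 peak list per library, of 83443 to 93220 peaks, with a fold enrichment (a ratio over local background), a −log10 p, a −log10 q and a score per peak. These are the authors' values, depend on each library's depth and were used only to describe, rank or filter peaks within a list.

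Peaks were merged with a script that gave the same number of regions as bedtools 2.31.1. Planted regions were all recovered in simulated data. Gene positions, types and start windows came from RefSeq tables of GRCm38.p6, the coordinates of mm10. The tables carry no strand for genes, so the nearer gene end was used. A desert is the stretch between neighbouring protein-coding genes, less 100 kb at each end. Python 3.11.15, pandas 2.3.3, scipy 1.17.1 and matplotlib 3.10.9 were used. Shares have exact Clopper-Pearson 95% intervals.

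The members and the gene lists were chosen with earlier results of these data known. The text names 7 of the 8 members of highest mean percentile (the other is not reported here) and the deserts with the most members, 9 rather than the planned 8 because of ties. It also names the 3 farthest members, those nearest the distance threshold, flanking genes in the lists and start windows with motifs. Deserts with 7 members, single genes within a list, Mir137 and the receptor segments were named after their values were seen. No genome was used here, so the planned sequence content of 300 bases at each summit was not analysed, and RefSeq lncRNA start windows were read instead.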

Additional observations from a re-analysis of the deposited data

Results flagged for a closer look

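The X chromosome was left out of the selection and was read by the same rule. It held 24 SISC-only regions among 254 desert regions (9.45%), beside 33 LISC-only regions and 76 of all 4 libraries. The SISC-only share was close to the 9.51% of chromosomes 1 to 19. The LISC-only share was lower, at 33 of 254 regions, against 1646 of 7762 (21.2%) on chromosomes 1 to 19. The strongest X-linked region (X:43738767-43739387, between Tex13c1 and Dcaf12l2) had −log10 q values of 87.1 and 104 in the SISC libraries. This was flagged because the data lay outside the main selection, with a count above 0.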

How the results depend on the processing

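The SISC-only share in deserts stayed below the LISC-only share under every alternative run, with a difference of -6.98 to -1.75 percentage points (-5.91 in the report). The distance bins, strength bands, margins, gene-list shares, motif shares and chromosome counts were not recomputed under alternatives. Cutting each list to its 41721 strongest peaks left 275 SISC-only and 655 LISC-only desert regions, and only 89 of the 738 members were among the 275. There the desert shares were 5.97% (SISC-only), 12.3% (LISC-only) and 3.28% (all 4), the median percentile was 66.4 and 32.0% lay in clusters. A −log10 q of at least 5 put 47.6% in clusters. Requiring peaks to cover 50% of a region gave shares of 13.2% (LISC-only) and 4.14% (all 4) and a median percentile of 34.2. Summit windows gave 12.8% for LISC-only. At over 50 kb from genes there were 1284 SISC-only and 2471 LISC-only regions, with shares of 13.8%, 20.7% and 8.85% (SISC-only, LISC-only, all 4) and a difference of -6.98 points. At over 200 kb there were 316 and 911, with shares of 3.38%, 7.64% and 1.78%, a difference of -4.26 points and 40.8% in clusters. With all annotated genes as boundaries there were 67 and 294, with shares of 0.718%, 2.47% and 0.413%, a difference of -1.75 points and 25.4% in clusters; 2 of the 8 strongest members were among the 67. Without members that had a LISC peak within 1 kb the SISC-only share was 8.61%, with 47.3% in clusters. Clusters held 38.8% of members at gaps of 25 kb and 63.4% at 100 kb. Counting antigen receptor segments as genes, a choice made after seeing the data, left 728.

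Leaving out a library gave 859 (without LISC replicate 1) to 1313 (without SISC replicate 1) SISC-only desert regions. The SISC-only share in deserts ranged from 6.54% to 7.82%, the LISC-only share from 12.2% to 13.3%, the difference from -6.77 to -4.33 points, the median percentile from 21.6 to 29.3 and the share in clusters from 54.1% to 65.6%. The SISC minus LISC share of each library's own peaks in deserts (-1.23 points) ranged from -1.39 to -1.07 without 1 library and from -1.45 to -0.317 under the settings of peaks, distance and genes run for it. With the replicate number as a block, which only the labels' numbering pairs, it was -1.12 and -1.34 in the pairs (mean -1.23, exact two-sided permutation of signs p = 0.5, the smallest possible). Other results come from calls over all libraries and were not paired. Sequence content at summits, in windows of 200 or 300 bases or the whole region, was not run. With depth unknown, a region uncalled in LISC may have signal below the caller's threshold.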

Other observations

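Chromosome 16 held more SISC-only than LISC-only desert regions. Its 58 SISC-only regions were 17.7% of its 327 desert regions, or 2.08 per Mb of desert, against 52 LISC-only regions. Besides the 8 between Eef2kmt and Rbfox1, they included 7 between the metalloproteinase gene Adamts5 and N6amt1, 6 between Opa1 and the Notch target gene Hes1, and 5 beside the transcription factor gene Runx1. Chromosome 19 was the other autosome with more SISC-only (14) than LISC-only (11) desert regions. On chromosome 1, 39 SISC-only regions made up 6.91% of the desert regions and there were 4.51 LISC-only regions for each. Chromosomes were not compared by a test, and the difference between them was singled out after the values were seen.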
